A study of Oryza sativa with 45 samples.

Results

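The heat shock proteins (HSPs) and heat shock factors (HSFs) of rice were examined on every array of the experiment. Their probe sets were chosen by name: a probe set was taken when its only annotated gene carried a rice symbol or synonym made of HSP and a number, or of HSFA, HSFB or HSFC and a number. This rule found 49 of the 54922 probe sets on the array, among 24080 that were annotated with 1 gene. They comprised 22 small HSPs, 3 HSP90 genes (HSP81-1, HSP81-2 and HSP81-3), the HSP100 gene HSP101, 11 class A, 6 class B and 4 class C HSFs, and 2 probe sets, HSFA2C/ARD1 and HSFA2D/ARD2, whose genes carry an HSF and an acireductone dioxygenase among their names. No probe set of the HSP60 or HSP70 families matched the name rule. The array annotation describes HSFA2C/ARD1 (LOC_Os10g28350, chromosome 10, 14680716 to 14683092, minus strand) as a dioxygenase and not as an HSF, so counts are also given for the other 47 probe sets.

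Messenger RNA of whole Nipponbare seedlings, 15 days old, was measured in 45 pools of 10 seedlings, with 3 pools in each of 15 groups. Line Ta carries 1 transgenic event, a copy of OsICE1 with a TAP tag under the maize ubiquitin promoter, brought in with Agrobacterium. Line NSb is a negative segregant from another event, Tb, made with OsICE1 without the tag under the same promoter, and line C was derived from seed. Ta and NSb are each a single line, and all 3 lines were sampled in generations F4, F6 and F8. In F6 each line was also grown under salt of 12 dS/m for 12 days, and in F8 each line was also sampled from descendants of the F6 plants that had received salt. The seeds of all groups were held at 50 °C for 30 min before sowing, and seedlings grew at 28 °C by day and 24 °C at night, so every group, including the controls, had the same warm seed treatment.

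Small HSPs bind proteins that begin to unfold and keep them from aggregating, HSP90 helps regulators such as kinases and receptors to reach their active form, and HSP100 pulls proteins out of aggregates. The genes of these chaperones are switched on by HSFs, which bind heat shock elements in their promoters. In plants, class A HSFs carry an activation domain, whereas classes B and C lack it, and several class B HSFs of Arabidopsis repress the heat response. Besides heat, salt, drought, cold and oxidative stress are known to act on many of these genes, and some small HSPs are also made in ripening seeds.

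The values are RMA signals on the log2 scale. The median signal of an array was 4.46 to 4.50 for F4, 4.14 to 4.22 for F6 and 4.53 to 4.58 for F8 arrays, so levels were compared within a generation. In F4, 17 of the 49 probe sets held exactly the same value on at least 3 of the 9 arrays, as did 21.5% of all probe sets, against 0 of the 49 in F6 and in F8. The spread between F4 pools may be understated where this occurs. The ICE1 probe set read between 8.82 and 9.63 on the 15 Ta arrays, against 4.74 to 6.30 in NSb and 4.37 to 5.93 in C, and the hygromycin resistance gene was high in Ta only. The mean over 7 seed storage markers lay between 1.85 and 2.20 and that over 5 panicle and pollen markers between 2.06 and 2.42 over all arrays, below the array medians. Replicate arrays correlated across all probe sets with r from 0.975 to 0.991, and p-values measure the spread between pools.

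Many of these genes gave little signal in seedlings. In F6, 21 of the 49 probe sets lay above the array median on all 18 arrays and 18 lay below it on all 18. A signal below the median may hold little more than background, and a difference measured from it may be compressed. Among the small HSPs, HSP17.9B read 9.80 to 10.31 in F6 and HSP18.9 read 1.56 to 1.87. Of the HSP90 genes, HSP81-3 read 9.54 to 10.15 in F6 and HSP81-2 5.53 to 6.53, whereas HSP101, the disaggregase needed for acquired heat tolerance, stayed under the median on every array, between 2.97 and 3.74 in F6. Of the HSFs, HSFA5 read 7.44 to 8.01 and HSFA6B 1.82 to 3.12 in F6, HSFB4C 4.66 to 5.58 and HSFB2A 3.45 to 4.08, and HSFC2A 3.46 to 4.65 and HSFC1B 2.46 to 2.90. Signals of different probe sets also differ in how well their probes bind, so these ranges give no order of transcript levels.

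More of these genes were called for salt in F6 than in any other comparison. Compared with the same line without salt, 7 of the 49 were higher and 1 lower in Ta, 15 were higher and 0 lower in NSb, and 13 were higher and 1 lower in C (limma, adjusted p under 0.05 over all probe sets, n = 3 pools per group). The share of members called higher was 14.3% in Ta, 30.6% in NSb and 26.5% in C, against 6.26%, 9.34% and 5.14% of all probe sets in the same comparisons. For lower calls the members gave 2.04%, 0% and 2.04%, against 4.24%, 6.09% and 4.54%. The median log2 response of the members was 0.11 in Ta, 0.081 in NSb and 0.17 in C, against -0.011, -0.0083 and 0.0044 over all probe sets. Of the members, 7 (14.3%) were higher in all 3 lines, as were 3.16% of all probe sets, 4 in 2 lines and 6 in 1 line, 2 were lower in 1 line, and 30 passed in none. The 7 include HSFA2C/ARD1 and HSFA2D/ARD2, which carry a dioxygenase name. Without the 2 probe sets that carry a dioxygenase name, 5 of 47 were higher in Ta, 13 in NSb and 11 in C. The 8 calls in Ta became 5 without Ta replicate 1 of the plants with salt, and the 14 in C became 9 without C replicate 3 of the plants without salt.

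**Figure D1:**
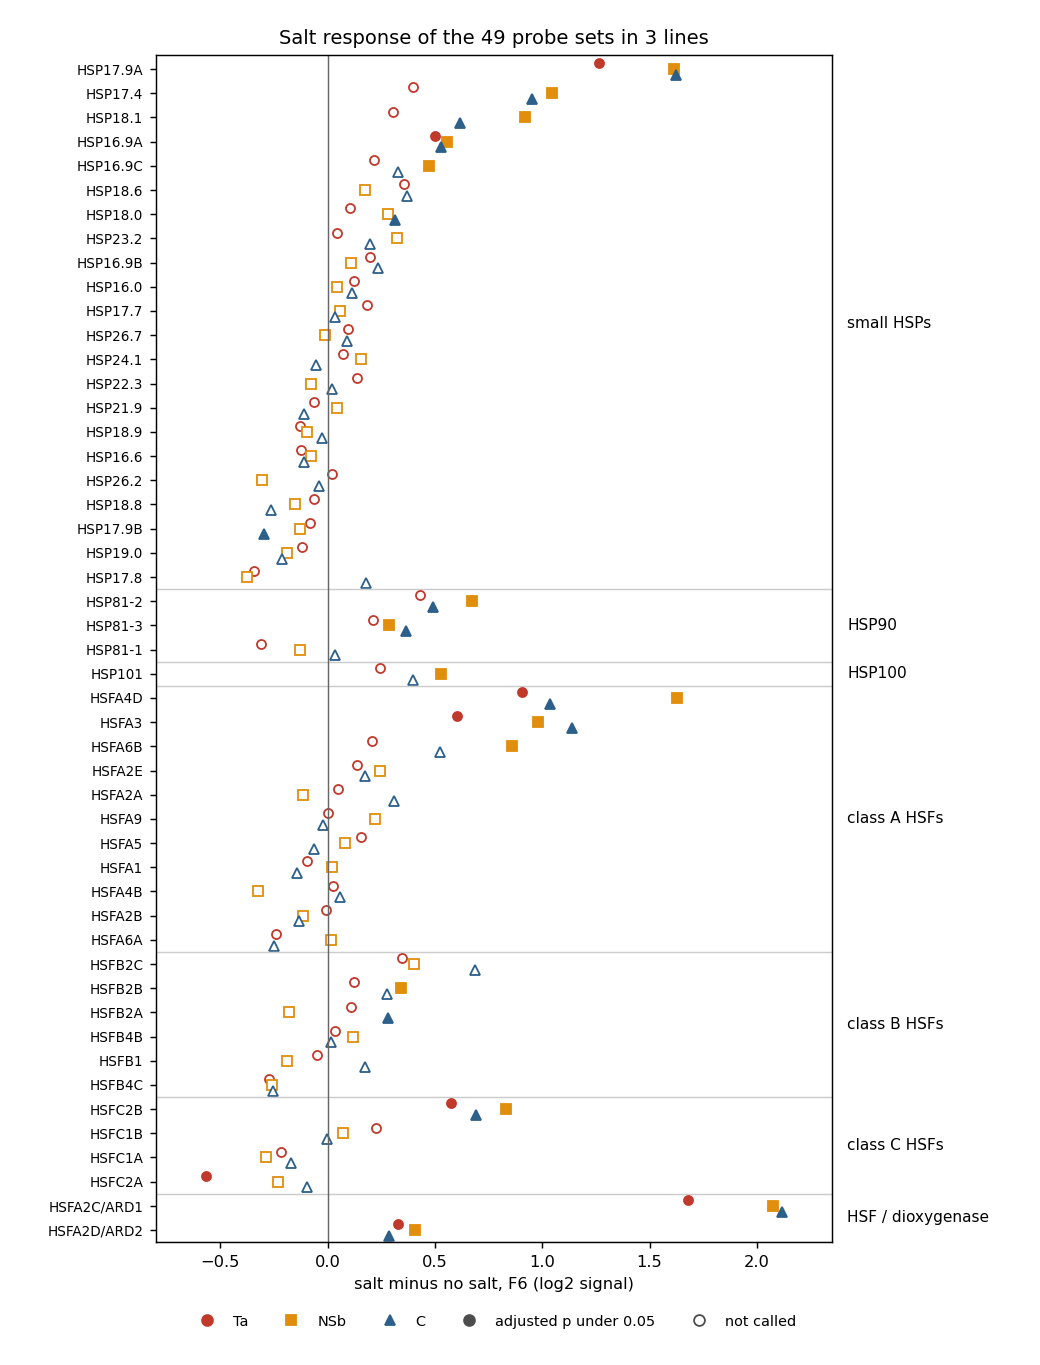
Salt response in F6 (salt minus no salt, log2 signal, horizontal axis) of each of the 49 probe sets, ordered within their classes, in Ta (circles), NSb (squares) and C (triangles); filled symbols passed the test. HSP17.9A leads the small HSPs with 1.26 to 1.62, HSFA4D and HSFA3 lead class A, and most other symbols lie within 0.5 of 0.

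The small HSPs fell into a few that responded and many that did not pass. Of the 22, 2 were higher under salt in Ta and 5 each in NSb and in C, and 1 was lower in C. Of all probe sets, 6.26%, 9.34% and 5.14% were higher in Ta, NSb and C, and 4.54% were lower in C. The class median was 0.10 in Ta, 0.052 in NSb and 0.10 in C. HSP17.9A (LOC_Os03g15960, chromosome 3, 8804505 to 8805539, plus strand), a class I small HSP of the cytosol, responded most. In Ta it read 3.90, 3.84 and 3.89 under salt, against 2.52, 2.52 and 2.79 without salt. In NSb it read 4.07, 4.39 and 4.44 under salt, against 2.64, 2.81 and 2.59 without, and in C 4.64, 4.03 and 4.57 under salt, against 2.79, 2.81 and 2.77 without. All 9 arrays under salt lay above all 9 without salt. Only 4 of the 18 F6 arrays lay above the array median, all of them NSb or C arrays under salt. Every Ta array lay below it, with or without salt, where a difference may be compressed. The response was 1.26 in Ta (SE 0.14, adjusted p = 2.35e-05), 1.61 in NSb (SE 0.14, adjusted p = 1.37e-06) and 1.62 in C (SE 0.14, adjusted p = 1.61e-06).

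HSP17.4 and HSP18.1, also class I small HSPs, were called in NSb and C and not in Ta. HSP17.4 read 3.55, 3.25 and 3.51 in Ta under salt, against 3.0, 3.04 and 3.08 without, a difference of 0.40 (SE 0.15, adjusted p = 0.124). In NSb it read 3.77, 4.26 and 4.45 under salt, against 3.14, 3.08 and 3.13 without, and in C 4.27, 3.80 and 4.17 under salt, against 2.97, 3.18 and 3.25 without. The arrays under salt lay above those without it in each line, and the response was 1.04 in NSb (adjusted p = 0.000238) and 0.95 in C (adjusted p = 0.000788). HSP18.1 read 3.10, 3.06 and 2.99 in Ta under salt, against 2.76, 2.75 and 2.72 without. NSb arrays read 3.20, 3.40 and 3.36 under salt, against 2.42, 2.22 and 2.56 without. C arrays read 3.58, 3.29 and 3.20 under salt, against 2.91, 2.88 and 2.42 without. Here too the groups did not overlap in any line, with responses of 0.31 in Ta (adjusted p = 0.167), 0.92 in NSb (adjusted p = 0.000169) and 0.62 in C (adjusted p = 0.00577). HSP18.1 lay below the array median on every F6 array, and HSP17.4 lay above it on only 3 of 18, none of them in Ta. Their responses may therefore be compressed. The test of the difference in response between Ta and NSb missed the threshold for both genes, at -0.65 for HSP17.4 (SE 0.22, adjusted p = 0.656) and -0.61 for HSP18.1 (SE 0.18, adjusted p = 0.623).

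HSP16.9A was the other small HSP called in all 3 lines, with 2.56, 2.31 and 2.55 in Ta under salt, against 1.90, 2.13 and 1.88 without. NSb had 2.62, 2.94 and 2.37 under salt, against 2.11, 2.07 and 2.09 without, and C had 2.58, 2.31 and 2.45, against 1.87, 1.88 and 2.0. The groups did not overlap in any line and the responses were nearly equal, at 0.50 in Ta, 0.55 in NSb and 0.53 in C, all at signals under the array median. The call in Ta was lost without Ta replicate 1 or 3, with or without salt (adjusted p up to 0.0716), and the call in C without C replicate 1, with or without salt (adjusted p up to 0.0535). HSP16.9C was called in NSb, with 0.47 (adjusted p = 0.0281), against 0.21 in Ta and 0.33 in C, which did not pass. HSP18.0, a class II small HSP, was called in C, with 0.31 (adjusted p = 0.0423), against 0.28 in NSb (adjusted p = 0.0508) and 0.10 in Ta. The test of the difference in response between NSb and C gave 0.15 for HSP16.9C (adjusted p = 0.877) and -0.032 for HSP18.0 (adjusted p = 0.969). Both calls were lost when single arrays were left out (5 and 14 of 18 arrays, adjusted p up to 0.114 and 0.164). None of the small HSPs that are sent to organelles passed in any line, among them HSP26.7 of the chloroplast, HSP24.1 and HSP26.2 of the mitochondrion, HSP16.0 of the peroxisome and HSP23.2 of the endoplasmic reticulum. Their salt responses lay between -0.31 and 0.32.

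**Figure D2:**
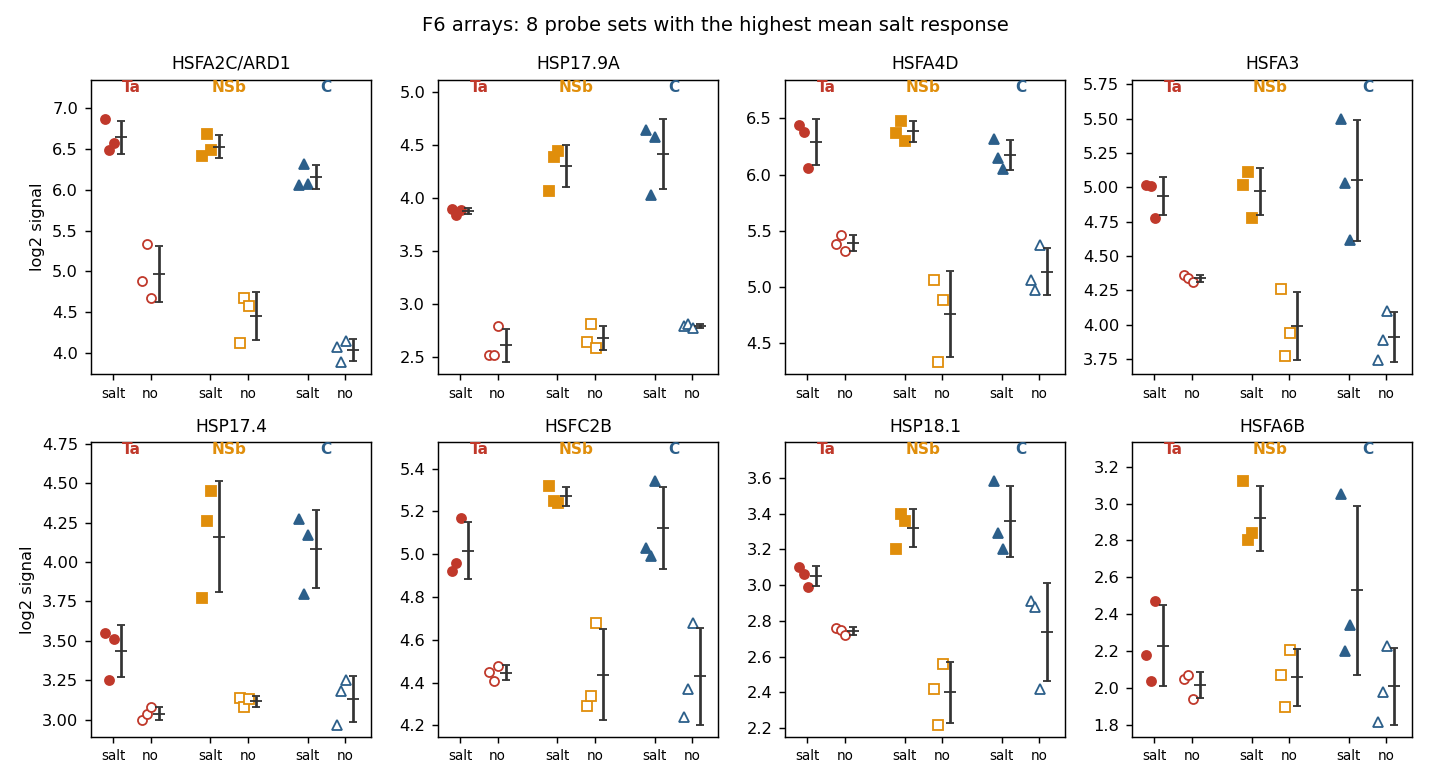
Log2 signal (vertical axis) on each F6 array of the 8 probe sets with the highest mean salt response, with salt (filled) and without (open) in Ta, NSb and C; bars give the mean and SD of 3 pools. HSFA2C/ARD1, HSP17.9A, HSFA4D, HSFA3, HSP17.4, HSFC2B and HSP18.1 show no overlap between salt and no salt in any line, whereas HSFA6B overlaps in Ta and in C.

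Neighbours on a chromosome had unlike mean salt responses, and the differences between neighbours were not tested. On chromosome 1, HSP16.6, HSP17.9B, HSP16.9C, HSP16.9A and HSP16.9B follow each other in the reference annotation with 0 genes between them. Their mean responses over the 3 lines were -0.10, -0.17, 0.34, 0.53 and 0.18 in that order. All but HSP17.9B lay below the array median on all 18 F6 arrays, where a response may be compressed. HSP17.9B was lower under salt in C, with 9.93, 9.88 and 9.99 under salt, against 10.16, 10.21 and 10.31 without (-0.29, SE 0.080, adjusted p = 0.0283), a call that was lost without C replicate 2 or 3 of the plants without salt or C replicate 1 or 2 of those with salt (adjusted p up to 0.0987). In NSb and Ta its difference was -0.13 and -0.081, and it was not called. On chromosome 3, HSP17.9A lies 4 genes from HSP17.4, which is followed by HSP18.1 and HSP17.7 with 0 genes between them, and their mean responses were 1.50, 0.80, 0.61 and 0.093. HSP16.9A, HSP16.9B and HSP16.9C are close copies, the annotation gives HSP16.9B as a synonym of more than 1 locus, and how far their probes bind each other's transcripts was not tested.

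**Figure D3:**
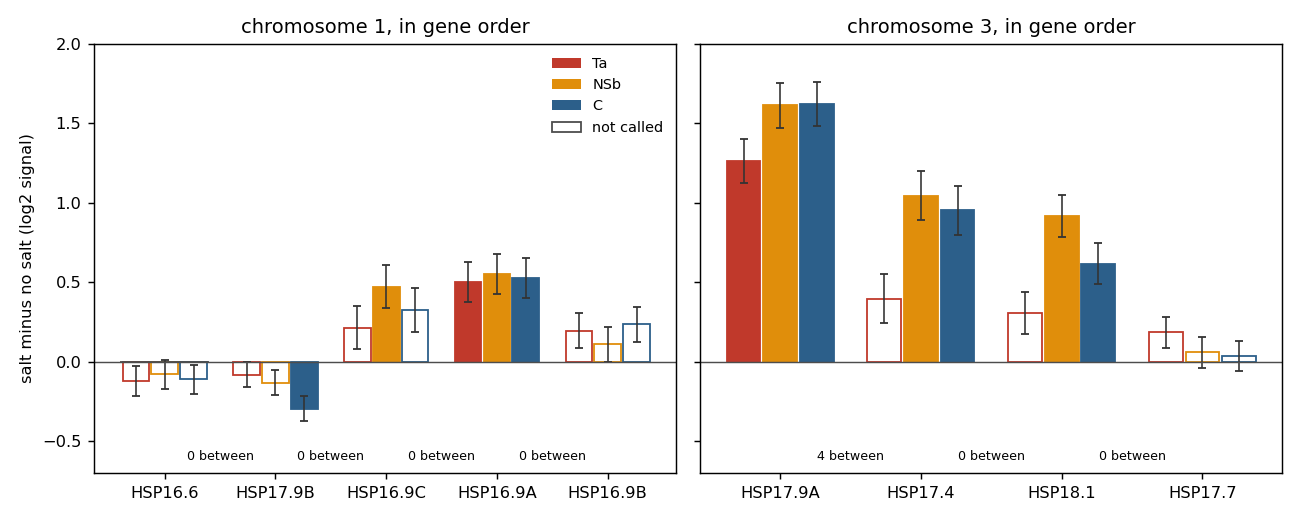
Salt response in F6 (log2 signal, bars with standard errors) of the neighbouring small HSP genes of chromosome 1 and chromosome 3, in gene order, with the number of annotated genes between neighbours; filled bars passed the test. The response is 1.50 on average at HSP17.9A and 0.093 at HSP17.7, and on chromosome 1 it is negative at HSP16.6 and HSP17.9B and positive at HSP16.9C, HSP16.9A and HSP16.9B.

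Of the larger chaperones, HSP81-2 and HSP81-3, neighbours on chromosome 9 with 2 genes between them, were higher under salt in NSb and C. HSP81-2 read 6.09, 5.99 and 6.17 in Ta under salt, against 5.66, 5.60 and 5.69 without. NSb arrays read 6.53, 6.20 and 6.10 under salt, against 5.57, 5.74 and 5.53 without. C arrays read 6.49, 5.90 and 6.23 under salt, against 5.97, 5.59 and 5.60 without. The groups overlapped only in C, and the response was 0.43 in Ta (adjusted p = 0.0766), 0.67 in NSb (adjusted p = 0.00499) and 0.49 in C (adjusted p = 0.0447); the call in C was lost in 14 of the 18 fits without 1 array, with adjusted p up to 0.181. HSP81-3 read 9.96, 9.91 and 10.10 in Ta under salt, against 9.77, 9.79 and 9.77 without, and the response was 0.21 in Ta (adjusted p = 0.15), 0.29 in NSb (adjusted p = 0.0368) and 0.36 in C (adjusted p = 0.0138). HSP81-1 was called in no line, with differences of -0.31 in Ta, -0.13 in NSb and 0.035 in C. HSP101 rose in NSb by 0.53 (SE 0.15, adjusted p = 0.0283), with 3.48, 3.69 and 3.74 under salt, against 2.97, 3.25 and 3.11 without, and its differences in Ta and C were 0.24 and 0.40. The NSb calls of HSP81-3 and HSP101 were lost without NSb replicate 1 or 3 of the plants without salt or NSb replicate 2 or 3 of those with salt, and that of HSP81-3 also without NSb replicate 2 of the plants without salt (adjusted p up to 0.12 for HSP81-3 and 0.0959 for HSP101), while the C call of HSP81-3 was lost without C replicate 3 of the plants without salt (adjusted p = 0.0519).

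Among the 11 class A HSFs, 2 were higher under salt in Ta, 3 in NSb and 2 in C, and none was lower. Of all probe sets, 6.26%, 9.34% and 5.14% were higher in these lines. HSFA4D (LOC_Os05g45410, chromosome 5, 26281777 to 26284252, plus strand) is the gene whose mutation gives the rice spotted leaf mutant spl7. It read 6.44, 6.38 and 6.06 in Ta under salt, against 5.38, 5.46 and 5.32 without. NSb arrays read 6.37, 6.48 and 6.30 under salt, against 5.06, 4.33 and 4.88 without. C arrays read 6.32, 6.15 and 6.05 under salt, against 5.06, 4.97 and 5.37 without. Every array under salt lay above every array without salt. The response was 0.91 in Ta (SE 0.16, adjusted p = 0.00159), 1.63 in NSb (adjusted p = 5.21e-06) and 1.04 in C (adjusted p = 0.00054). The difference in response between Ta and NSb, -0.72 (SE 0.23), had an adjusted p of 0.623.

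HSFA3, which in Arabidopsis acts below DREB2A in the response to heat and drought, was also called in all 3 lines. In Ta it read 5.02, 5.01 and 4.78 under salt, against 4.36, 4.34 and 4.31 without. In NSb it read 5.02, 5.11 and 4.78 under salt, against 4.26, 3.77 and 3.94 without, and in C 5.50, 5.03 and 4.62, against 3.74, 3.89 and 4.10. The groups did not overlap, with responses of 0.60 in Ta (SE 0.18, adjusted p = 0.0428), 0.98 in NSb (adjusted p = 0.0014) and 1.14 in C (adjusted p = 0.000645). In Ta the call was lost without C replicate 2 or NSb replicate 3 of the plants without salt, without C replicate 2 or NSb replicate 1 or 2 of those with salt, and without any single Ta array of F6, with adjusted p up to 0.131, and also after centring on array medians (adjusted p = 0.0616) or quantile normalisation (adjusted p = 0.0559). HSFA6B, a dim probe set whose Arabidopsis counterpart takes part in abscisic acid and drought responses, was called in NSb, with 3.12, 2.80 and 2.84 under salt, against 2.07, 1.90 and 2.21 without (0.86, adjusted p = 0.00462). In Ta it read 2.18, 2.04 and 2.47 under salt, against 2.05, 2.07 and 1.94 without, and in C 3.05, 2.20 and 2.34, against 1.82, 1.98 and 2.23, and these groups overlapped, with differences of 0.21 in Ta and 0.53 in C (adjusted p = 0.0933). The difference in response between NSb and C, 0.33 (SE 0.26), had an adjusted p of 0.775, and that between Ta and NSb, -0.65, one of 0.702. The other 8 class A genes, among them HSFA1, HSFA2A, HSFA5 and HSFA9, passed in no line, and their differences lay between -0.33 and 0.31.

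Classes B and C, which lack the activation domain, gave calls in both directions. HSFC2B, of class C, was higher in all 3 lines, with 4.92, 4.96 and 5.17 in Ta under salt, against 4.45, 4.41 and 4.48 without. NSb arrays read 5.32, 5.25 and 5.24 under salt, against 4.29, 4.34 and 4.68 without. C arrays read 5.03, 4.99 and 5.34 under salt, against 4.24, 4.37 and 4.68 without. No groups overlapped, and the response was 0.57 in Ta (adjusted p = 0.00913), 0.83 in NSb (adjusted p = 0.000385) and 0.69 in C (adjusted p = 0.00246). HSFC2A, of the same class, had the lowest mean response of the 49, -0.30. It fell in Ta, to 3.46, 3.97 and 4.09 under salt, against 4.30, 4.41 and 4.52 without (-0.57, SE 0.15, adjusted p = 0.0258). NSb arrays read 4.36, 4.09 and 4.46 under salt, against 4.65, 4.36 and 4.58 without, and C arrays 4.51, 4.16 and 4.29 under salt, against 4.58, 4.28 and 4.40 without. These groups overlapped, and the differences, -0.23 in NSb and -0.097 in C, did not pass. The call in Ta was lost without Ta replicate 2 or 3 of the plants without salt or Ta replicate 1 of those with salt (adjusted p up to 0.13). HSFC1A read 3.55, 3.41 and 3.39 in Ta under salt, against 3.64, 3.61 and 3.76 without. NSb arrays read 3.76, 3.33 and 3.18 under salt, against 3.72, 3.68 and 3.74 without. C arrays read 3.36, 3.61 and 3.70 under salt, against 3.64, 3.82 and 3.73, and it was not called.

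In class B, 1 of 6 genes was called higher in NSb and 1 in C, against 9.34% and 5.14% of all probe sets. HSFB2B was 0.34 higher in NSb (adjusted p = 0.0467) and HSFB2A 0.28 higher in C (adjusted p = 0.042), and these calls near the threshold were lost in 14 and 12 of the 18 fits without 1 array (adjusted p up to 0.146 and 0.124). HSFB4C read 5.04, 5.09 and 5.15 in Ta under salt, against 5.58, 5.38 and 5.14 without. NSb arrays read 4.93, 4.81 and 4.95 under salt, against 5.07, 5.19 and 5.21 without. C arrays read 4.90, 4.66 and 4.92 under salt, against 4.96, 5.15 and 5.14. Its arrays under salt lay below the others in NSb and C, and its differences, -0.27, -0.26 and -0.26, had adjusted p of 0.133, 0.125 and 0.18. The small HSP HSP17.8 had lower means under salt in Ta and NSb and a higher one in C, but no difference between lines passed. It read 4.97, 4.72 and 4.87 in Ta under salt, against 5.30, 4.99 and 5.30 without. NSb arrays read 4.96, 4.83 and 5.12 under salt, against 5.34, 5.52 and 5.18 without. C arrays read 5.05, 5.12 and 5.25 under salt, against 5.09, 5.17 and 4.63. Its differences were -0.35 in Ta, -0.37 in NSb and 0.18 in C, and none was called. The C array at 4.63 lay apart from the other C arrays. In the test of the difference in response between NSb and C it gave -0.55 (SE 0.20, adjusted p = 0.57).

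HSFA2C/ARD1 had the largest salt response of the 49, and acireductone dioxygenases are enzymes that salvage methionine from a by-product of ethylene and polyamine synthesis. In Ta it read 6.87, 6.49 and 6.57 under salt, against 4.88, 5.34 and 4.67 without. In NSb it read 6.41, 6.68 and 6.49 under salt, against 4.12, 4.67 and 4.57, and in C 6.06, 6.32 and 6.07, against 4.07, 3.89 and 4.15. No groups overlapped, and the response was 1.68 in Ta (SE 0.17, adjusted p = 9.83e-06), 2.08 in NSb (adjusted p = 7.5e-07) and 2.12 in C (adjusted p = 8.04e-07), or 3.20-, 4.22- and 4.33-fold. HSFA2D/ARD2 read 8.26, 8.34 and 8.22 in Ta under salt, against 7.98, 7.90 and 7.95 without. NSb arrays read 8.35, 8.39 and 8.33 under salt, against 7.92, 7.96 and 7.98 without. C arrays read 8.37, 8.30 and 8.34 under salt, against 8.01, 8.13 and 8.02. It was higher in all 3 lines as well, by 0.33 in Ta, 0.41 in NSb and 0.28 in C, and the call in C was lost without C replicate 1 of the plants without salt (adjusted p = 0.0563).

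Some other genes of protein folding and of the heat response were called for salt. Among all probe sets, 6.26% were called higher in Ta, 9.34% in NSb and 5.14% in C, and 4.24%, 6.09% and 4.54% lower. The gene lists are short, and their counts were not tested against these shares. Of 7 chaperonin and Clp genes, 2 were higher under salt in Ta, 3 in NSb and 3 in C, and 1 was lower in Ta and 1 in NSb. CLPD1, an HSP100 relative of the chloroplast known as a drought and senescence gene, was 1.43 higher in Ta, 2.50 in NSb and 1.73 in C, and CLPC2 was 0.60, 0.64 and 0.60 higher. Of 21 genes of endoplasmic reticulum folding and the unfolded protein response, 5 were higher and 1 lower in Ta, 4 higher in NSb and 2 higher in C, with the disulfide isomerase OsPDIL1-1 called in every line at 0.54, 0.68 and 0.74. Of 9 co-chaperones, 0 passed in Ta and in NSb and 1, DJB6, in C. Of 8 other genes of the heat stress response, APX1, a cytosolic ascorbate peroxidase, was 0.29 higher in Ta and 0.32 in NSb, DREB2A was 0.51 higher and RUB1 0.44 lower in NSb, and 0 passed in C.

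The seedlings were whole, and some tissue markers moved with salt. The mean over 6 root markers lay between 5.88 and 6.08 in Ta under salt, against 6.30 to 6.56 without; between 5.96 and 6.05 in NSb under salt, against 6.73 to 6.87 without; and between 6.07 and 6.15 in C under salt, against 6.46 to 6.83 without. The nitrate transporter NRT2.1 fell by 3.59 in Ta, by 3.14 in NSb and by 3.31 in C, and OsCASP1 of the Casparian strip fell in all 3 lines, while 2 other root markers, OsAMT1;2 and Lsi1, rose in C. The mean over 4 shoot markers was 8.35 to 8.53 in Ta under salt, against 8.64 to 8.70 without, and the ranges with and without salt overlapped in NSb and C. In whole seedlings a smaller share of a tissue and less RNA per cell cannot be told apart, and the part of tissue proportions in the salt responses was not tested.

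The test of whether lines responded differently to salt found none of the 49 in Ta against C, NSb against C or Ta against NSb (limma, against 0.00364%, 0.00182% and 0% of all probe sets). The smallest adjusted p were 0.642 for HSP17.8, 0.427 for HSFB2A and 0.623 for HSFA4D. At an unadjusted p under 0.05 there were 3, 6 and 5 members. The share of all probe sets at that unadjusted threshold was not counted, here or below, so such counts cannot show whether the members had an excess. Under salt, none of the 49 was called between lines either, at 0.395%, 0.0801% and 0.135% of all probe sets for Ta against C, NSb against C and Ta against NSb. These shares are for adjusted p. An unadjusted p under 0.05, for which no share was counted, was found for 12, 5 and 9 members. Yet 13 of the 49 (26.5%) had every Ta array under salt below every C array under salt, against 7.83% of all probe sets, and 13 had every Ta array below every NSb array, against 8.46%. HSP17.4 was among them, 0.65 lower in Ta than in C (SE 0.15, adjusted p = 0.0863) and 0.72 lower than in NSb (adjusted p = 0.0899), as were HSP17.9A, 0.54 lower in Ta than in C (adjusted p = 0.118) and HSP81-1, 0.72 lower (adjusted p = 0.0966). Without C replicate 3 of the plants without salt, 3 members were called between Ta and C, the highest count of any fit without 1 array. Among the root markers, OsAMT1;2 was 1.11 lower in Ta than in C under salt. The mean over the 4 shoot markers under salt was 8.35 to 8.53 in Ta and 8.49 to 8.61 in NSb, against 8.68 to 8.78 in C, so that Ta and C did not overlap. The part of these markers in the line values was not tested. The comparisons of Ta and NSb with C use the same C arrays, and those with Ta the same Ta arrays.

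Without salt, 1 of these genes was called between lines in F4 and 0 in F6. The gene called in F4 was HSFA2C/ARD1, which read 5.14, 5.70 and 5.28 in Ta and 5.71, 5.42 and 5.66 in NSb, against 4.21, 4.02 and 4.22 in C. All arrays of Ta and NSb lay above those of C, and the difference from C was 1.23 in Ta (SE 0.15, adjusted p = 0.0258) and 1.45 in NSb (SE 0.15, adjusted p = 0.00586). It made up 1 of 49 members (2.04%) in each comparison, against 0.126% of all probe sets higher in Ta and 0.615% higher in NSb, and with it left out 0 of 47 remained. The call in Ta was lost in 8 of the 9 fits without 1 array (adjusted p up to 0.0983), all but the fit without Ta replicate 2. In F6, where every Ta array read above every C array, its difference was 0.93 in Ta (adjusted p = 0.25) and 0.42 in NSb (adjusted p = 0.701), and in F8 0.87 (adjusted p = 0.0796) and 0.58 (adjusted p = 0.66). Ta against NSb in F4 and every comparison in F6 called 0 members (limma, against 0.0710%, 0.0455%, 0.0310% and 0.0401% of all probe sets for Ta against NSb in F4 and, in F6, Ta against C, NSb against C and Ta against NSb). At an unadjusted p under 0.05, where the share of all probe sets was not counted, there were 4, 6, 4 and 11 members. The 0 in F6 depended on the fit, since all 45 arrays in 1 fit called 2 members for Ta against C and 4 for Ta against NSb.

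In F8 without salt-stressed ancestors, Ta stood apart from both other lines. HSFB2C and HSP81-1 were higher in Ta than in C (2 of 49, 4.08%, against 0.266% of all probe sets), and these and HSFA3 were higher in Ta than in NSb (3 of 49, 6.12%, against 0.177%). HSFB2C, of the class without an activation domain, read 5.77, 5.67 and 5.75 in Ta, against 4.37, 4.05 and 4.44 in NSb and 4.27, 4.17 and 4.45 in C. The Ta arrays were close to each other and above all others, with a difference of 1.43 from C (SE 0.12, adjusted p = 0.00175) and of 1.44 from NSb (adjusted p = 0.00158), or 2.70- and 2.71-fold. HSP81-1 read 7.54, 7.53 and 7.59 in Ta, against 6.79, 6.28 and 6.36 in NSb and 6.53, 6.15 and 6.36 in C, again without overlap. Its difference was 1.21 from C (SE 0.15, adjusted p = 0.0093) and 1.08 from NSb (adjusted p = 0.0203), or 2.31- and 2.11-fold. HSFA3 read 5.48, 5.31 and 5.26 in Ta, against 4.76, 4.66 and 4.68 in NSb and 4.71, 4.91 and 4.92 in C; the difference of 0.65 from NSb passed (adjusted p = 0.033) and that of 0.50 from C did not (adjusted p = 0.0739). The HSP81-1 call against C was lost without C replicate 3 (adjusted p = 0.0501), that against NSb without any Ta array or NSb replicate 2 or 3 (up to 0.0904), and the HSFA3 call without any array but C replicate 1 (up to 0.129).

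In F8, 38 of the 49 were higher in Ta than in C by their means, with a median difference of 0.11, against -0.00016 over all probe sets, and 20 (40.8%) had every Ta array above every C array, against 8.30% of all probe sets. Against NSb, 36 were higher, the median was 0.12, against 0.0054 over all probe sets, and 14 (28.6%) did not overlap, against 7.44%; these comparisons share the 3 Ta arrays. The class B HSFs had a median difference of 0.31 from C and ranged from 0.044 to 1.43, the class C HSFs a median of -0.10, and the 22 small HSPs a median of 0.13. NSb against C called 0 of the 49 (limma, against 0.0419% of all probe sets). At an unadjusted p under 0.05, where the share of all probe sets was not counted, there were 6 members. On the same arrays the mean over 6 root markers read 6.49 to 6.67 in Ta, against 6.42 to 6.52 in NSb and 6.59 to 6.67 in C, the mean over 4 shoot markers 8.33 to 8.36, against 8.22 to 8.41 and 8.20 to 8.40, and 1 root marker, NRT2.1, was 1.28 higher in Ta than in C and another, Lsi2, 0.60 lower; their part in the result was not tested. Among the pathway genes (lists of 21, 9, 7 and 8), 2 were called higher in Ta than in C, against 0.266% of all probe sets. They were the HSP100 relative CLPB-M of the mitochondrion, 0.80 higher (limma, adjusted p = 0.00922), and the co-chaperone DJC27, 0.57 higher (adjusted p = 0.0366).

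**Figure D4:**
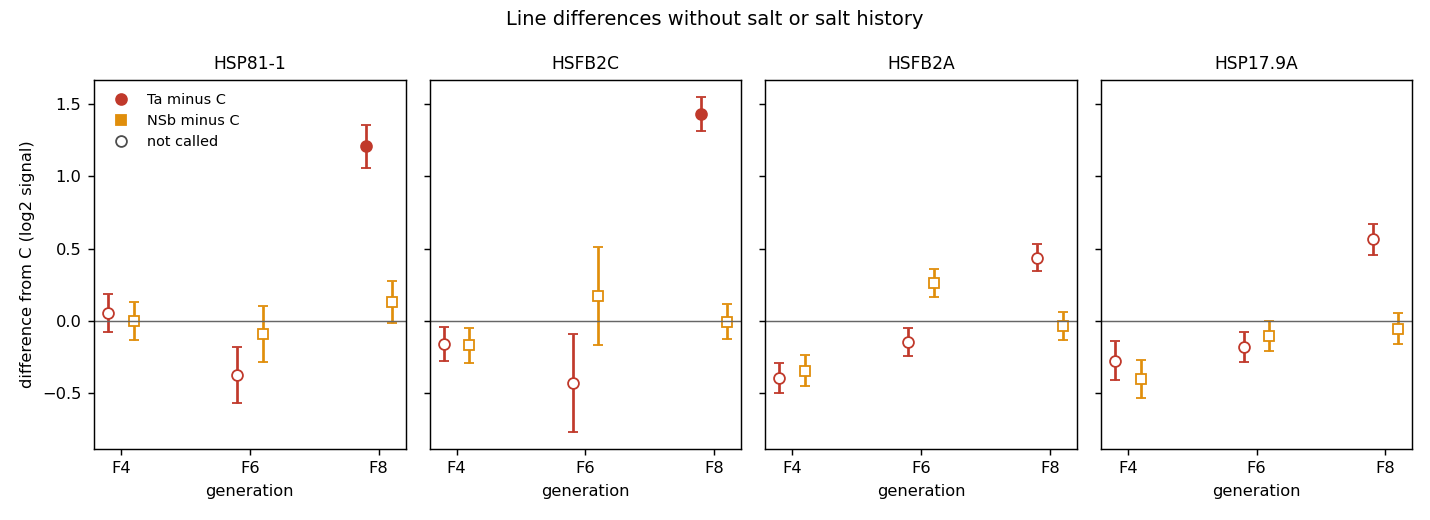
Difference of Ta (circles) and NSb (squares) from C without salt or salt history in F4, F6 and F8 (log2 signal, with standard errors) for the 4 genes whose Ta difference changed between F4 and F8; filled symbols passed the test within the generation. For Ta, HSP81-1 goes through 0.057, -0.37 and 1.21 and HSFB2C through -0.16, -0.43 and 1.43, while NSb stays within 0.5 of C. The C arrays of HSFB2C in F6 spread from 3.99 to 5.59.

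Whether the difference of Ta from C changed between F4 and F8 was tested directly over the 27 arrays without salt or salt history. It did for 4 of the 49 (8.16%), all upward, against 0.169% of all probe sets changing upward, and for 0 of the 49 in NSb (limma, 0.288% of all probe sets). In NSb 11 members had an unadjusted p under 0.05, a threshold at which the share of all probe sets was not counted. HSFB2C changed by 1.59 (SE 0.34, adjusted p = 0.0316), where the F4 arrays read 3.05, 3.25 and 3.44 in Ta, against 3.25, 3.38 and 3.60 in C. HSP81-1 changed by 1.15 (SE 0.24, adjusted p = 0.0256), with F4 signals of 5.53, 5.11 and 5.30 in Ta, against 5.42, 5.27 and 5.09 in C, so both had overlapping groups in F4 and separate ones in F8. HSP17.9A, which led the small HSPs under salt, changed by 0.84 (SE 0.16, adjusted p = 0.0149). It read 2.97, 3.03 and 3.06 in Ta of F4, against 3.06, 3.22 and 3.60 in C, and 3.81, 3.74 and 4.08 in Ta of F8, against 3.33, 3.31 and 3.31 in C.

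HSFB2A, also of class B, changed by 0.83 (SE 0.13, adjusted p = 0.00289), with 3.82, 3.94 and 3.80 in Ta of F4, against 4.19, 4.12 and 4.43 in C, and 4.58, 4.70 and 4.75 in Ta of F8, against 4.28, 4.22 and 4.20 in C. Its Ta arrays thus lay below all C arrays in F4 and above them all in F8, although neither difference passed within its generation (-0.39, adjusted p = 0.194, and 0.44, adjusted p = 0.107). In F6 the difference of Ta from C was -0.43 for HSFB2C, -0.37 for HSP81-1, -0.18 for HSP17.9A and -0.15 for HSFB2A, and none passed. For HSFB2C the C arrays of F6 lay far apart, at 5.59, 5.28 and 3.99, against 4.32, 4.61 and 4.63 in Ta. Its mean difference of -0.43 thus joins C arrays above and below those of Ta. Only the HSFB2A call held in every fit without 1 array; that of HSP17.9A was lost without Ta replicate 3 of F8 (adjusted p = 0.054), and those of HSP81-1 and HSFB2C in 9 of 27 such fits each (adjusted p up to 0.0914 and 0.0962). The HSFB2C call was also lost with the replicate block (adjusted p = 0.0784) and after quantile normalisation (adjusted p = 0.0608), and that of HSP17.9A when only the groups compared were fitted (adjusted p = 0.102). In F4, HSFB2C held the same value on 4 of the 9 arrays, so its spread there may be understated. HSFB2C, HSFB2A and HSP17.9A lay above the array median on 0 of the 9 F4 arrays, and HSP17.9A on 0 of the 18 F8 arrays. A line difference at such signals may be compressed, and the part of this in the changes was not tested. The root marker NRT2.1 was called in the same test, with a change of 1.17 (adjusted p = 0.0212), and its part in these changes was not tested.

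The F8 plants whose F6 ancestors had grown under salt received none themselves, and no member was called for salt history within a line (limma, 0 of 49 in Ta, NSb and C, against 0.0310%, 0.00364% and 0% of all probe sets). At an unadjusted p under 0.05, where the share of all probe sets was not counted, there were 11, 3 and 1 members. Without dim probe sets, 1 member was called in Ta. In Ta, 10 of the 49 (20.4%) had every array with salt-stressed ancestors below every array without, against 5.90% of all probe sets, and 35 had a lower mean. The median difference of the members in Ta was -0.083, against 0.0021 over all probe sets. The 2 genes that had been high in Ta of F8 showed the largest such differences: HSFB2C read 5.05, 4.76 and 5.07 in Ta with salt-stressed ancestors, against 5.77, 5.67 and 5.75 without (-0.77, SE 0.14, adjusted p = 0.0713). HSP81-1 read 6.99, 6.90 and 6.83 with salt-stressed ancestors, against 7.54, 7.53 and 7.59 without (-0.65, SE 0.15, adjusted p = 0.183). HSP17.9A read 3.17, 3.60 and 3.49, against 3.81, 3.74 and 4.08 (-0.46, adjusted p = 0.298). The groups did not overlap for any of these 3, and the arrays without history are the same 3 Ta arrays that gave the line differences above.

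**Figure D5:**
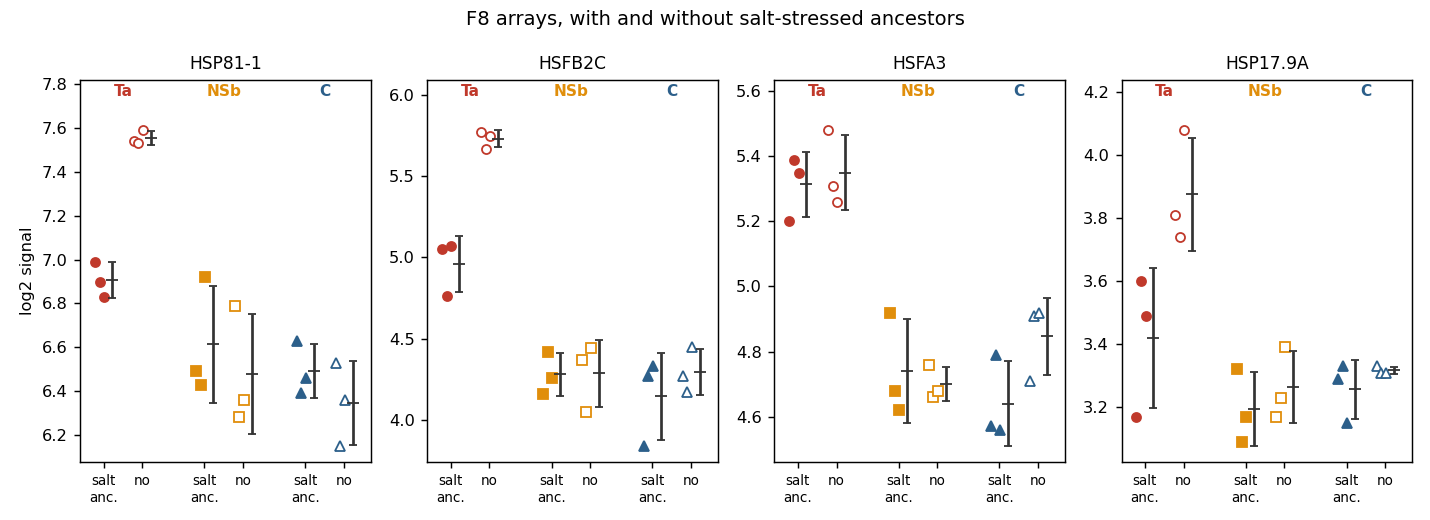
Log2 signal (vertical axis) on each F8 array, with salt-stressed ancestors (filled) and without (open), in Ta, NSb and C; bars give the mean and SD of 3 pools. HSP81-1 and HSFB2C lie highest in Ta without salt-stressed ancestors and lower, between 6.83 and 6.99 and between 4.76 and 5.07, in Ta with them, and HSFA3 lies above NSb and C in both Ta groups, from 5.20 to 5.48.

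With salt-stressed ancestors, 3 members were called between Ta and C and 2 between Ta and NSb. HSFA3, HSFB2C and HSFA2C/ARD1 were higher in Ta than in C (3 of 49, 6.12%, against 0.364% of all probe sets), and HSFA3 and HSFB2C were higher in Ta than in NSb (2 of 49, 4.08%, against 0.204%). Without the dioxygenase-named probe sets, 2 of 47 were called in each comparison. HSFA3 read 5.20, 5.39 and 5.35 in Ta, against 4.92, 4.68 and 4.62 in NSb and 4.57, 4.79 and 4.56 in C, without overlap. It differed by 0.68 from C (SE 0.10, adjusted p = 0.00276) and by 0.57 from NSb (adjusted p = 0.0158), close to its differences without salt-stressed ancestors. HSFB2C read 5.05, 4.76 and 5.07 in Ta, against 4.16, 4.42 and 4.26 in NSb and 3.84, 4.27 and 4.33 in C, and differed by 0.81 from C (adjusted p = 0.00847) and 0.68 from NSb (adjusted p = 0.0418). HSFA2C/ARD1 read 5.97, 5.65 and 5.45 in Ta and 6.18, 5.60 and 5.69 in NSb, against 5.01, 4.73 and 4.64 in C; the difference from C was 0.90 in Ta (adjusted p = 0.0397) and 1.03 in NSb (adjusted p = 0.057). HSP81-1 was no longer called, and NSb against C called 0 members (limma, against 0.100% of all probe sets). At an unadjusted p under 0.05, where the share of all probe sets was not counted, there were 3. Leaving out single arrays ended the calls of HSFA2C/ARD1 in Ta (9 of 18 fits, adjusted p up to 0.163), of HSFB2C against NSb (12 of 18, up to 0.224) and C (without Ta replicate 3 with salt-stressed ancestors, 0.0516) and of HSFA3 against NSb (without Ta or NSb replicate 2 or 3 with salt-stressed ancestors, up to 0.0925). On these arrays the mean over 6 root markers read 6.54 to 7.04 in Ta, against 6.41 to 6.45 in NSb and 6.51 to 6.72 in C, and the mean over 4 shoot markers 8.22 to 8.47 in Ta, against 8.43 to 8.62 in NSb and 8.30 to 8.36 in C. The root marker NRT2.1 was 2.06 higher in Ta than in NSb (adjusted p = 0.0355), and the shoot marker rca, Rubisco activase, fell by 0.41 in Ta relative to C (adjusted p = 0.0297); their part in the result was not tested.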

How the data were processed

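RNA of 45 pools of whole rice seedlings was hybridised to Affymetrix RUSGene 1.1 ST arrays. Per the submitters' notes, RMA in Affymetrix Expression Console made the values, and the authors deposited log2 signals from 0.649 to 12.9 for 54922 probe sets, which were used as given; versions and a genome build are not given in the sources used here. Genes were named through the platform annotation and the rice reference table (24080 probe sets with 1 gene, 95 with several, 30747 with none); coordinates are those of the array annotation (MSU release 6 loci).

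Groups were taken from the sample titles. Differences were fitted with limma 3.58.1 in R 4.3.3 (lmFit and eBayes, no covariates, 2-sided, Benjamini-Hochberg over all probe sets). Salt and lines under salt were fitted over the 18 F6 arrays. Salt history and lines with salt-stressed ancestors were fitted over the 18 F8 arrays. Lines without salt or salt history were fitted over 9 arrays per generation, and changes between F4 and F8 over 27 arrays. Line calls with and without salt-stressed ancestors thus rest on different estimates of the spread. A probe set was called at an adjusted p under 0.05; requiring a 3-fold difference as well, as the study did, was an alternative. Fits were tested on simulated data with 200 changed probe sets. The number of arrays limits the precision. Members and gene lists were chosen with earlier results of these data known. By the rule for named genes, every member may be named, and values on every array are given for the 8 highest and 4 lowest mean salt responses, for members called between lines, for salt history or for a difference of responses (up to the 6 smallest adjusted p per kind) and for the highest and lowest level of a class, here as ranges; the other genes with array values were chosen after seeing them. Promoter motifs were not analysed here. Alternatives were filters on dim and on invariant probe sets (the 10% with the highest SD), identical rows tested once, median centring, quantile normalisation, a trended prior with robust variances, fits limited to the compared groups or widened to all 45 arrays, a block for the replicate number, and each array left out in turn; leaving out the 2 dioxygenase-named probe sets was added after seeing the data.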

Additional observations from a re-analysis of the deposited data

Results flagged for a closer look

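For 4 genes the difference of Ta from C changed between F4 and F8 by the test of the change itself. The change was 1.15 for HSP81-1, 0.83 for HSFB2A, 1.59 for HSFB2C and 0.84 for HSP17.9A on the log2 scale, and in each the F8 difference was the higher. HSFB2A, HSFB2C and HSP17.9A lay below the array median on every F4 array, where a difference may be compressed. In a further comparison, HSFB2C was higher in Ta than in NSb on every F8 array, by 1.44, and lower on every F6 array without salt, by 0.61 (-0.61), so that the groups were separate in opposite directions; this difference between F8 and F6 was not tested.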

How the results depend on the processing

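No value changed its direction under any alternative. The counts of members called moved as follows. A 3-fold requirement left 1 of 8 salt calls in Ta, 3 of 15 in NSb and 2 of 14 in C, 0 of 1 in F4 for Ta against C and for NSb against C, 0 of 2 and 0 of 3 in F8 for Ta against C and against NSb, 0 of 3 and 0 of 2 for the same with salt-stressed ancestors, and 1 of the 4 changes between F4 and F8. Testing only the 10% of probe sets with the highest SD gave 4, 5 and 5 salt calls, 0 for Ta against C in F4, 1 and 1 for Ta against C and NSb in F8, 0 and 0 with salt-stressed ancestors and 2 changes, over fewer probe sets. Fits of only the groups compared, with fewer arrays, gave 5 salt calls in C, 0 for Ta against C in F4, 1 for Ta against NSb in F8 and 0 and 0 with salt-stressed ancestors. All 45 arrays in 1 fit gave 5 and 2 calls under salt for Ta against C and NSb, where the main count was 0, 2 and 3 in F4 for Ta and NSb against C, 2 and 4 in F6 and 5 and 6 in F8 for Ta against C and NSb, and 1 and 0 with salt-stressed ancestors for NSb against C and Ta against NSb. Without dim probe sets there were 2 calls for NSb against C in F4, 4 for Ta against C in F8, 1 for history in Ta and 1 for NSb against C with salt-stressed ancestors. A trended prior with robust variances gave 2 for NSb against C in F4 and 1 with salt-stressed ancestors, and identical probe sets tested once also gave 1 there. Without the 2 dioxygenase-named probe sets, an alternative chosen after seeing the data, 0 remained in F4 for Ta and NSb against C. The causes were not tested.

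Without 1 array, calls ranged from 5 to 9 for salt in Ta, 11 to 17 in NSb and 9 to 15 in C, 0 to 3 and 0 to 1 for Ta against C and NSb under salt, 0 to 1 and 1 to 2 for Ta and NSb against C in F4, 0 to 1 for Ta against C in F6, 1 to 2 and 1 to 3 for Ta against C and NSb in F8, 2 to 3, 0 to 1 and 0 to 2 for Ta against C, NSb against C and Ta against NSb with salt-stressed ancestors, and 1 to 4 for the change in Ta, and stayed at 0 elsewhere. The lowest count for the change came without F8 Ta replicate 3. Samples with the same replicate number correlated between -0.16 and 0.25 in their deviations, and those with different numbers between -0.30 and 0.28. With 3 arrays per group, these ranges cannot settle whether the numbers pair the samples, and the main fits did not pair them. With the replicate block there were 8, 13 and 13 salt calls in Ta, NSb and C, 0 for Ta against C in F4, and 1 for NSb against C with salt-stressed ancestors. Of 53 single calls, the block ended 7: HSP81-3 and HSFB2B for salt in NSb (adjusted p = 0.0522 and 0.0672), HSFB2A and HSP18.0 in C (0.0542 and 0.0536), HSFA2C/ARD1 for Ta against C in F4 (0.102), HSFA3 for Ta against NSb in F8 (0.113) and HSFB2C for the change (0.0784). Centring on array medians ended 6 and quantile normalisation 5, with HSFA3 in Ta, HSP81-3 and HSFB2B in NSb and HSFB2A in C lost in both (adjusted p up to 0.117), HSP81-2 (0.0730) and HSP18.0 (0.0885) in C after centring, and HSFB2C for the change (0.0608) after quantile normalisation. Signals below the array median limit what could be detected for 18 members in F6.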

Other observations

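Some of these genes lay at other levels in one generation than in the next, on arrays without salt or salt history. HSP16.9A read 2.05 to 2.81 in F8 and 1.87 to 2.13 in F6, against 3.72 to 4.92 in F4, and HSFB2C read 4.05 to 5.77 in F8 and 3.99 to 5.59 in F6, against 3.05 to 3.60 in F4. After centring each array on its median, HSP16.9A was lower in F8 than in F4 by a difference of -1.85, a size that 0.266% of all probe sets reached, and HSFB2C was higher in F6 than in F4 by 1.88, which 0.346% reached. Array medians differed between the generations, and generation and normalisation cannot be told apart. On the same arrays the mean over 6 root markers lay between 6.42 and 6.67 in F8 and between 6.30 and 6.87 in F6, against 5.46 to 5.84 in F4, and HSP16.9A and HSFB2C each held the same value on 4 of the 9 F4 arrays. The part of tissue proportions in these levels was not tested.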
